A study of Homo sapiens with 16 samples.

Results

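FANK1 and DHX32 lie head to head on chromosome 10 and start from the same stretch of DNA. In the deposited table of read counts around transcription start sites (TSS), 13 windows on this chromosome carry 1 of these 2 gene symbols, of 272902 windows in all and 237274 with distinct coordinates. Each window is 2000 bp wide and reaches 1 kb to either side of an annotated start. FANK1 (ENSG00000203780) has 10 windows and DHX32 (ENSG00000089876) has 3, and all 13 passed the filter on low counts in both ChIP and input. The windows were chosen by gene symbol, and the pair of genes was picked with ChIP results of these libraries known, so the ChIP values are a description and carry no test. The input counts were tested as a separate measure. Which values led to the choice is not stated, so whether the input played a part in it is not known.

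The libraries come from BJ-5ta, an established line of human fibroblasts immortalised with telomerase, in which ChIP DNA and input DNA were sequenced. Wild-type cells and ΔLEO1 cells, in which LEO1 was disrupted by CRISPR/Cas9, were grown in 10% serum or kept for 10 days in 0.1% serum to bring them into quiescence. ΔLEO1 is a single clone, obtained with guides to 2 exons of LEO1, so a difference between genotypes is also a difference between this clone and the parental cells. LEO1 is a subunit of the PAF1 complex, which travels with RNA polymerase II. The labels name the antibody as H3, whereas H3K9me2, histone H3 dimethylated at lysine 9, is the target given in the design text and the study's methods. The 16 libraries form 8 groups of 2, replicates A and B, and no label says that these were separate cultures, so errors and p-values measure the spread between libraries only. ChIP replicate A of ΔLEO1 in 10% serum held 54 reads over all windows and 0 at the 13 windows, and was left out. ΔLEO1 in 10% serum is therefore represented by 1 ChIP library, and its values carry no call. The other ChIP libraries held 2153836 to 3696942 reads over all windows and the inputs 3267811 to 9238282.

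H3K9me2 is a mark of silent chromatin, laid down in broad domains over genes that are not in use, and is usually low at active promoters. When a pair of genes face away from each other across a short gap, a single promoter region serves both, and a mark measured there cannot be assigned to either gene. FANK1 encodes a protein with a fibronectin type III domain and ankyrin repeats that is best known from the testis. DHX32 encodes a protein related to the DEAH-box RNA helicases.

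The 13 windows merged into 7 start sites where they overlapped. The shared site holds the DHX32 transcript ENST00000415732, read from the minus strand at chr10:125895436-125897436, and the FANK1 transcript ENST00000368693, read from the plus strand at chr10:125895564-125897564. Their starts are 128 bp apart and their windows share 1872 bp, so both windows count mostly the same reads. In RefSeq (GRCh38.p14) the 2 genes meet here, with DHX32 reaching from 125836337 to 125896485 and FANK1 from 125896564 to 126009592. The other 2 DHX32 windows, ENST00000368721 and ENST00000284690, start 41705 and 15272 bp away, inside the DHX32 gene. The other 9 FANK1 windows form 4 sites inside the FANK1 gene, represented by ENST00000445510 at 76935 bp, ENST00000492670 at 91987 bp, ENST00000456942 at 98853 bp and ENST00000477963 at 107584 bp from the FANK1 start.

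The 2 promoter sequences below are shown because they set the shared start, which carried the most reads, beside an internal start of DHX32, which did not. They are RefSeq sequences of build GRCh38.p14, each running from 250 bases before a start to 50 after it, at chr10:125896314-125896613 on the plus strand for FANK1 and at chr10:125881243-125881542 on the minus strand for the internal DHX32 start. The FANK1 sequence also covers the start of DHX32 ENST00000415732. Capitals mark CG pairs.
FANK1 shared promoter: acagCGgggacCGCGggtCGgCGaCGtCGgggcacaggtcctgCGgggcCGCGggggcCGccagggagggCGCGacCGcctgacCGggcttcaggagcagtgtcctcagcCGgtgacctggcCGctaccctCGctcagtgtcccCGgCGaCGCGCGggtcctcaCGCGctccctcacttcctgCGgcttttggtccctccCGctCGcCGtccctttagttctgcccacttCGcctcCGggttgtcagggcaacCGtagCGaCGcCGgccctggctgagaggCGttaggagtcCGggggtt
DHX32 internal promoter: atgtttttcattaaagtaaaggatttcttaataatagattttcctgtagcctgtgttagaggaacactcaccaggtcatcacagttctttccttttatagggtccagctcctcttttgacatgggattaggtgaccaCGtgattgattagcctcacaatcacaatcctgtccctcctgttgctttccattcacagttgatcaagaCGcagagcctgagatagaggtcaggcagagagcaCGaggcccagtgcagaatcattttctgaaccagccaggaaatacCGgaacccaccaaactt

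The shared promoter is rich in CG pairs. It holds 37 of them at 72.3% GC, and 11.3% of 35116 RefSeq promoters of this length hold as many. The internal DHX32 promoter holds 4 at 44.3% GC, against a median of 14 over all promoters. Of 6 motifs searched on both strands, the printed shared promoter matched none. A second RefSeq promoter of FANK1, at chr10:125896556-125896855 and partly overlapping the first, holds 31 CG pairs and had 1 GC box. They were the GC box GGGCGG, which 44.95% of promoters hold, the CCAAT box CCAAT (34.6%), the TATA box TATAAA (11.5%), the ETS motif CCGGAAG (10.3%), the AP-1 motif TGANTCA (7.71%) and the E box CACGTG (7.26%). The internal DHX32 promoter had 1 TATA box, on the other strand, and 1 E box.

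In ChIP, the shared start was the highest of the 7 start sites in every library. At the FANK1 window, wild type in 10% serum gave 79 reads in replicate A and 78 in replicate B, which is 30.2 and 25.2 CPM (counts scaled to the library total times its TMM factor). Wild type in 0.1% serum gave 39 and 35 reads, or 11.8 and 12.9 CPM. Both low-serum libraries were below both libraries in 10% serum. ΔLEO1 in 10% serum gave 41 reads in its single library, or 19.2 CPM, with an exact 95% Poisson interval of 13.8 to 26.0 CPM that covers counting error only. ΔLEO1 in 0.1% serum gave 38 and 26 reads, or 10.1 and 10.3 CPM. The order of the levels was thus wild type in 10% serum (27.7 ± 3.54 CPM, SD, n = 2), ΔLEO1 in 10% serum, wild type in 0.1% serum (12.3 ± 0.770, n = 2) and ΔLEO1 in 0.1% serum (10.2 ± 0.104, n = 2). The first neighbours in this order are not separated, since replicate B of wild type lies within the interval of the single ΔLEO1 library. The last neighbours differ by about the error, with 26 to 39 reads per library and a log2 fold change of -0.25 ± 0.24 (SE).

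**Figure D1:**
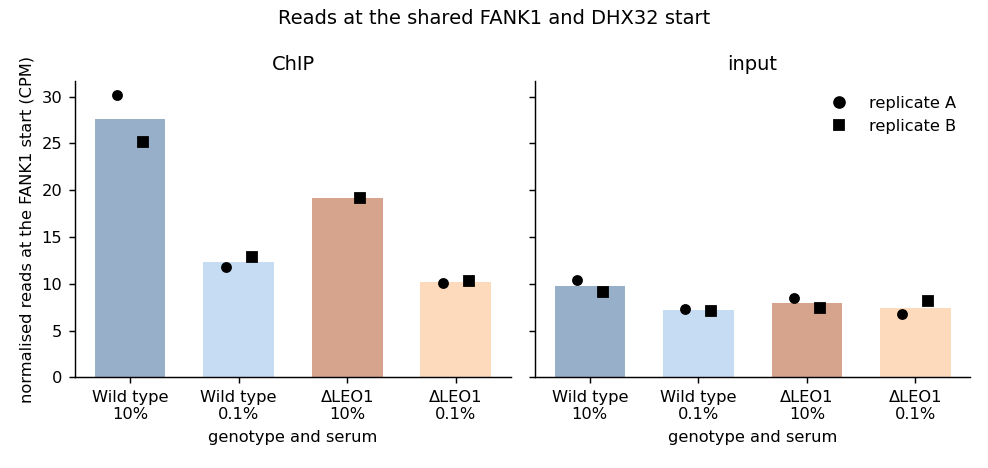
Normalised reads (CPM) at the FANK1 window of the shared start in each library, for ChIP (left) and input (right). Bars are group means and points are libraries (circles replicate A, squares replicate B). ChIP runs from 10.1 to 30.2 CPM and is highest in wild type in 10% serum, and input runs from 6.75 to 10.4 CPM.

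The fall with serum withdrawal was the clearest difference at the shared start. In wild type, ChIP at the FANK1 window was 2.17-fold lower in 0.1% than in 10% serum, a log2 fold change of -1.12 ± 0.19 (SE), and the DHX32 window gave the same value of -1.12 ± 0.19. Both shared windows, and none of the other 11, were past an adjusted p of 0.05 in the fit over all windows (edgeR), where 0.197% of 159524 windows were called lower. These windows were picked with this kind of contrast known, so nothing is read from that count. In ΔLEO1 the value at the FANK1 window was -0.87 ± 0.29, with 1 library in 10% serum.

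The genotypes differed less at the shared start. In 0.1% serum, ΔLEO1 against wild type gave a log2 fold change of -0.25 ± 0.24 at the FANK1 window and -0.27 ± 0.24 at the DHX32 window, about the size of the error. These values turned to 0.038 and 0.017 when library sizes were taken from reads in peak regions, a scaling that set the median over all windows to 0.27. The libraries of the 2 genotypes did not overlap, but 21.1% of all windows were lower in ΔLEO1 without overlap. None of the 13 windows was called in this contrast, against 0.347% of all windows. In 10% serum the value was -0.50 ± 0.24, with 1 ΔLEO1 library. Whether the difference between genotypes depends on serum was not tested.

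The other 6 start sites lay at lower levels, and their changes with serum lay on both sides of 0. Their ChIP values ran from 1.91 to 11.2 CPM over all libraries, with a median of 5.98, against 10.1 to 30.2 at the shared start. Within wild type, their log2 fold changes in 0.1% against 10% serum ran from -0.34 to 0.79 with a median of 0.33, and 4 of 6 were above 0. In ΔLEO1 they ran from -0.053 to 0.95 with a median of 0.56, and 5 of 6 were above 0.

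**Figure D2:**
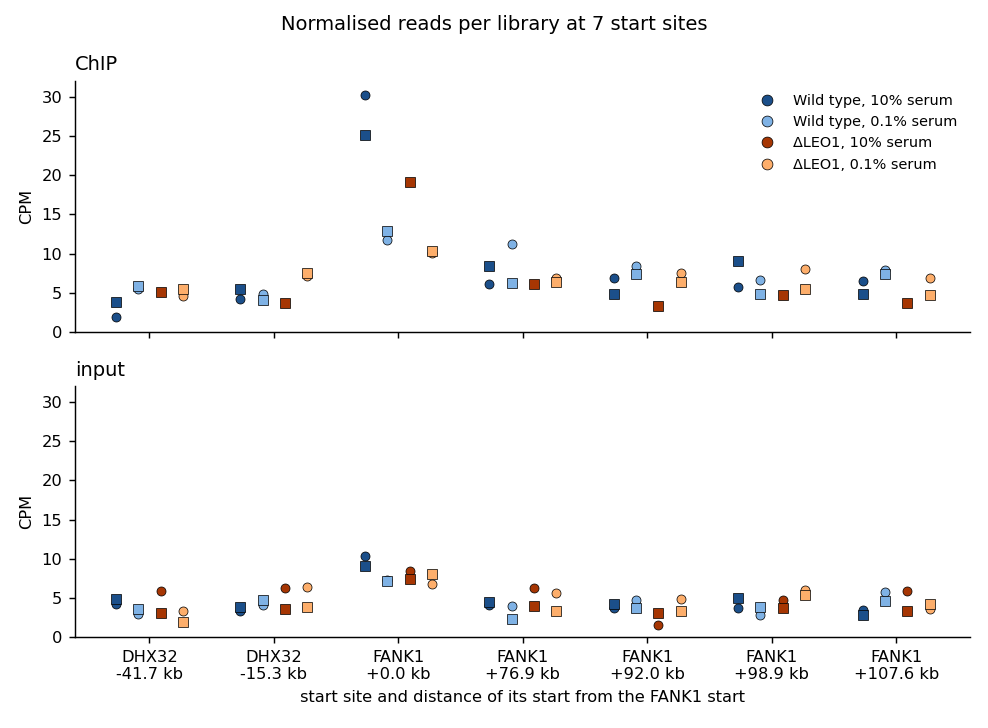
Normalised reads (CPM) per library at the 7 start sites, ordered along the chromosome and labelled by gene and distance from the FANK1 start, for ChIP (top) and input (bottom). Colours give genotype and serum, circles replicate A and squares replicate B. The shared start (+0.0 kb) stands above the other 6 sites in ChIP, and by less in input.

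The most distant DHX32 start moved the other way in wild type. ENST00000368721 (chr10:125853859-125855859) gave 5 and 12 ChIP reads in 10% serum, 1.91 and 3.87 CPM, and 18 and 16 reads in 0.1% serum, 5.44 and 5.88 CPM. The libraries in 0.1% serum were both above those in 10% serum, with a log2 fold change of 0.79 ± 0.36. In ΔLEO1 it stood at 5.15 CPM in 10% serum and at 4.53 and 5.53 CPM in 0.1% serum.

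The middle DHX32 start, whose promoter is printed above, was highest in ΔLEO1 in 0.1% serum. ENST00000284690 (chr10:125880292-125882292) gave 27 and 19 reads there, 7.19 and 7.51 CPM, against 16 and 11 reads in wild type, 4.83 and 4.04 CPM. The log2 fold change was 0.63 ± 0.32, and the libraries did not overlap, as at 19.7% of all windows. In 10% serum it stood at 4.20 and 5.49 CPM in wild type and at 3.74 CPM in ΔLEO1, or 8 reads. Its log2 fold change for serum in wild type was -0.11 ± 0.35.

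The internal FANK1 starts gave values on both sides of 0 for serum in wild type. At ENST00000445510 (chr10:125972499-125974499), the ChIP libraries of wild type in 0.1% serum gave 11.2 and 6.25 CPM, a gap between replicates wider than the distance between group means of 8.71 in 0.1% and 7.25 in 10% serum. ENST00000368689, an overlapping window of the same site, gave a ChIP log2 fold change of 0.16 ± 0.33. Its input value for serum in wild type was 0.44 ± 0.26, against -0.44 ± 0.29 at ENST00000445510, and neither was called. ENST00000492670 and ENST00000477963 were higher in 0.1% than in 10% serum in wild type without overlap, at log2 fold changes of 0.42 ± 0.30 and 0.40 ± 0.31. At ENST00000477963 the input gave a larger value for the same contrast, 0.71 ± 0.28, which was not called, and log2 ChIP over input there went from 0.76 in 10% to 0.51 in 0.1% serum. ENST00000456942 gave -0.34 ± 0.30 with overlapping libraries. In wild type, 3 of 7 sites were thus higher and 1 lower without overlap, against 20.1% and 19.6% of all windows.

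**Figure D3:**
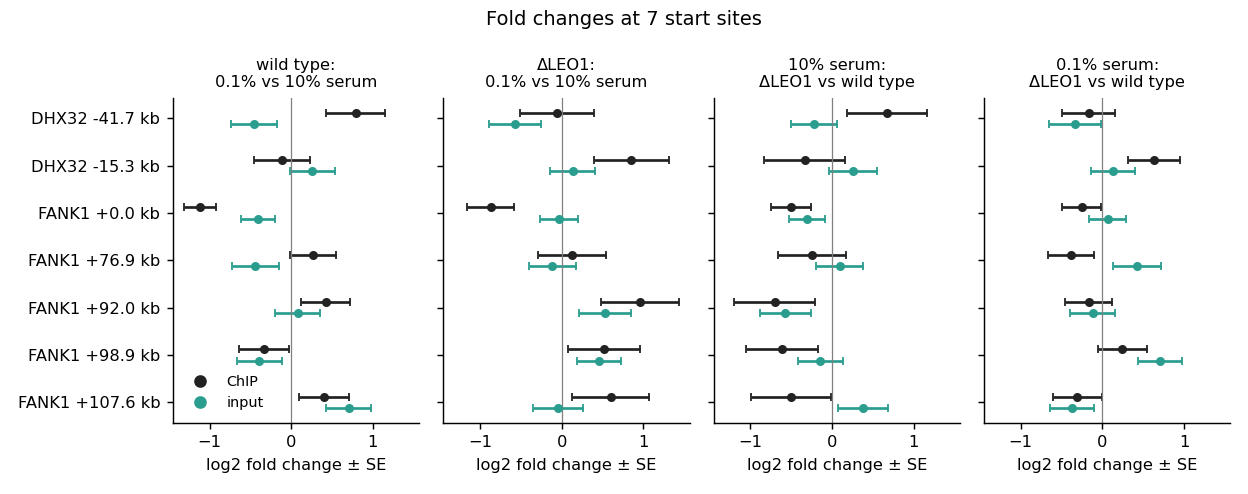
Log2 fold change with its standard error at the 7 start sites in 4 contrasts, for ChIP (black) and input (green). Panels on ΔLEO1 against wild type in 10% serum and on serum within ΔLEO1 rest on 1 ΔLEO1 ChIP library. In ChIP the shared start (FANK1 +0.0 kb) is at -1.12 in wild type and -0.87 in ΔLEO1 for 0.1% against 10% serum.

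The input was also high at the shared start, in every library. It ran from 6.75 to 10.4 CPM there and from 1.57 to 6.37 CPM at the other 6 sites. In wild type in 10% serum the input at the FANK1 window was 10.4 and 9.10 CPM, above 99.9% of 140607 distinct windows, and in 0.1% serum it was 7.31 and 7.11 CPM. The fall of 0.41 ± 0.21 on the log2 scale was not called (adjusted p = 0.507, edgeR quasi-likelihood test). Between genotypes the input differed by 0.064 ± 0.22 in 0.1% serum (adjusted p = 0.997) and by -0.31 ± 0.22 in 10% serum (adjusted p = 0.842). Serum within ΔLEO1 gave -0.034 ± 0.23 (adjusted p = 1.00).

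No member was called in any of the 4 input contrasts by edgeR, where 0.0%, 0.0235%, 0.0021% and 0.0% of 238006 windows were called for genotype in 0.1% serum, serum in wild type, genotype in 10% serum and serum in ΔLEO1. The lowest adjusted p among the 13 windows was 0.331, at ENST00000477963 for serum in wild type, with a log2 fold change of 0.71 ± 0.28. Its input gave 3.47 and 2.82 CPM in 10% serum and 5.77 and 4.65 CPM in 0.1% serum. At an unadjusted p under 0.05 there were 2, 1, 0 and 0 of the 13 members in the 4 contrasts. Over all 238006 windows the counts were 12688, 24311, 15708 and 9436, so nothing is read from the members. The 2 are the overlapping windows ENST00000456942 and ENST00000464130, which form 1 start site.

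ChIP over input put the shared start high in 10% serum and near the middle of all windows in ΔLEO1 in 0.1% serum. The log2 ratio at the FANK1 window, with 0.5 CPM added, was 1.46 in wild type in 10% serum, above 91.3% of distinct windows, and 0.73 in 0.1% serum, above 71.0%. In ΔLEO1 it was 1.22 in 10% serum, above 87.2%, and 0.43 in 0.1% serum, above 50.7%. The median over all windows was between 0.31 and 0.42 in the 4 groups. The shared start was not the highest of the 7 sites on this scale in 0.1% serum. In wild type, ENST00000445510 was at 1.34, above 94.6% of windows, and ENST00000492670 at 0.81. ENST00000368689, a window of the same site as ENST00000445510, was at 0.16, above 39.3%. In ΔLEO1, 5 of the other 6 sites were above the shared start by their representative windows, from 0.48 to 0.80. ENST00000456942 was below it at 0.23, as was ENST00000368689 at 0.35. The ChIP level alone ranked higher, above 99.98% of windows in wild type in 10% serum and above 96.0% in ΔLEO1 in 0.1% serum.

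A ratio taken within each library needs no scaling between libraries and was added after the values had been seen. Reads at the FANK1 window were divided by reads at the representative windows of the other 6 start sites. In ChIP the ratio was 0.963 and 0.690 in wild type in 10% serum and 0.719 in ΔLEO1 in 10% serum. It was 0.265 and 0.361 in wild type in 0.1% serum, and 0.247 and 0.286 in ΔLEO1 in 0.1% serum. All 4 low-serum libraries were below all 3 libraries in 10% serum, in both genotypes. The pair was picked with these ChIP results known, and the ratio was not taken at other genes, so nothing is read from this separation. The other 6 sites had median log2 fold changes for serum of 0.33 in wild type and 0.56 in ΔLEO1, which also lowers the ratio. Among the 8 inputs the ratio ran from 0.226 to 0.457, a range that holds all 4 low-serum ChIP values and none of the 3 in 10% serum. In the wild-type inputs it was 0.457 and 0.359 in 10% serum and 0.301 and 0.308 in 0.1% serum.

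**Figure D4:**
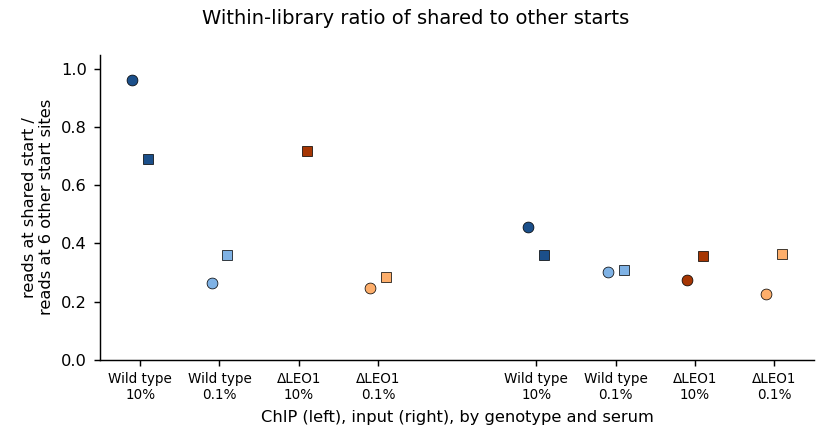
Reads at the shared start divided by reads at the 6 other start sites, per library, for ChIP (left) and input (right) by genotype and serum. Circles are replicate A and squares replicate B. ChIP in 10% serum lies between 0.690 and 0.963 and ChIP in 0.1% serum between 0.247 and 0.361.

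Genes around the pair lay below the shared start in ChIP level in 3 of the 4 groups. Within 250 kb of the outermost windows there are 14 other named genes, each taken by its window with the most ChIP reads. In wild type in 10% serum they ran from 2.60 to 11.0 CPM with a median of 7.15, all below the shared start. The highest of them also lay below it in wild type in 0.1% serum, at 10.4 CPM, and in ΔLEO1 in 10% serum, at 11.7 CPM. In ΔLEO1 in 0.1% serum, RNA5SP328 at 12.2 CPM and ADAM12 at 11.8 CPM were above the FANK1 window at 10.2 CPM. None was called for serum in wild type or for genotype in 0.1% serum, and their median log2 fold change for serum in wild type was 0.057, against 0.0060 over all windows. TEX36, MMP21 (a matrix metalloproteinase) and ADAM12 (a membrane metalloproteinase) had log2 ChIP over input of 1.09, 1.09 and 0.89 in wild type in 10% serum. UROS, an enzyme of haem synthesis, and BCCIP, a partner of BRCA2, were at -0.081 and -0.33. EDRF1 was at -0.35 and GNG10P1, a pseudogene between the shared start and the internal FANK1 starts, at 0.90. On this scale the highest of the 14 genes was below the FANK1 window only in wild type in 10% serum, at 1.17 against 1.46. In wild type in 0.1% serum it was 1.47 against 0.73. In ΔLEO1 it was 1.38 against 1.22 in 10% serum and 1.43 against 0.43 in 0.1% serum.

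**Figure D5:**
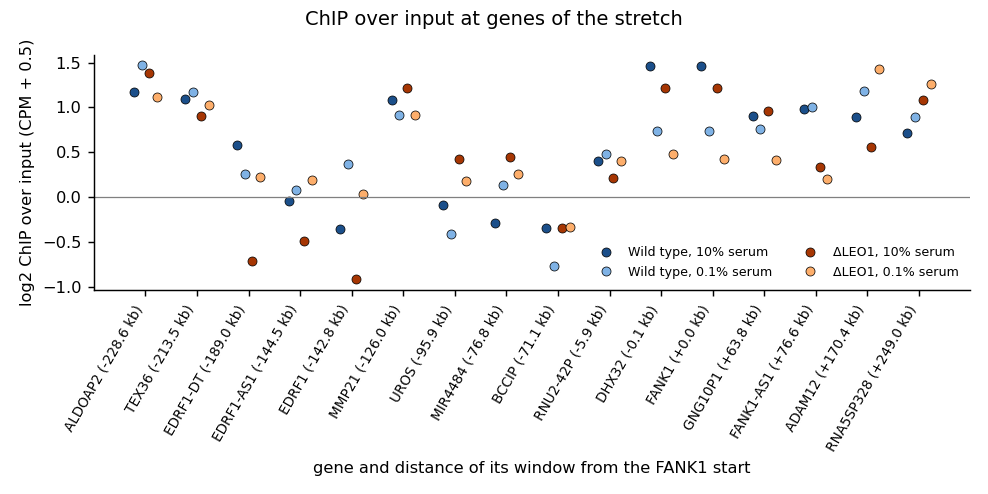
Log2 ChIP over input (0.5 CPM added) at FANK1, DHX32 and 14 other named genes, in order along the chromosome with the distance of each window from the FANK1 start. Colours give genotype and serum, with 1 value per group. FANK1 and DHX32 are at 1.46 in wild type in 10% serum and at 0.43 and 0.48 in ΔLEO1 in 0.1% serum.

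Promoters as rich in CG pairs as the shared one mostly had low ChIP. Of distinct windows, 28168 were centred within 50 bp of a RefSeq start, and 2639 of these had at least 37 CG pairs. Their median in wild type in 10% serum was 3.88 CPM in ChIP and 4.75 CPM in input, with a median log2 ratio of -0.24. The FANK1 window was above 99.96% of them in ChIP and above 92.1% in log2 ChIP over input, with an input of 9.75 CPM. By that ratio it was above 81.3% of them in wild type in 0.1% serum, and above 89.4% and 78.4% in ΔLEO1 in 10% and 0.1% serum. The median log2 fold change in ChIP of these CG-rich windows for serum in wild type was -0.15. Their median input in wild type was 4.75 CPM in 10% serum and 3.78 CPM in 0.1% serum. Windows with at most 5 CG pairs had a median of 5.78 CPM in ChIP.

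In ChIP level, the other members of the DEAH-box family lay below the shared DHX32 window. The list of other DEAH-box genes holds 18, of which 15 passed the filter and 0 were called in either contrast. Their ChIP level in wild type in 10% serum had a median of 5.72 CPM and reached 10.5 CPM at TDRD9, a germ-cell helicase of the piRNA pathway. The DHX32 windows ENST00000368721 and ENST00000284690 stood at 2.89 and 4.84 CPM there. In log2 ChIP over input, the highest of the list was above the shared DHX32 window in each group. In wild type it was 1.63 against 1.46 in 10% serum and 1.00 against 0.73 in 0.1% serum. In ΔLEO1 it was 1.34 against 1.21 and 1.21 against 0.48. The list medians were 0.44, 0.39, 0.22 and 0.52. TDRD9 had a log2 fold change of -0.98 ± 0.29 for serum in wild type (adjusted p = 0.128, edgeR). The family median for that contrast was -0.0038, and for genotype in 0.1% serum it was 0.14.

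The 5 genes outside the stretch whose ChIP followed the DHX32 shared window most closely over the 7 libraries were LINC01206 (Pearson r = 0.993), LINC01477 (0.990), AGBL4 (0.990), BRINP3-DT (0.989) and RPL7AP9 (0.988), of 13984 genes compared. With 7 libraries and this many genes such values are a description only, and the points share their libraries and depth. AGBL4, a carboxypeptidase that trims glutamate from tubulin tails, had 16.6 CPM in wild type in 10% serum and 8.22 CPM in 0.1% serum.

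No peak region touched the pair. Of 16092 deposited peak regions, 4 lay within 250 kb of a member window, 0 overlapped one and 0 were annotated to FANK1 or DHX32. The closest was 221 kb from the FANK1 start, on an L1PA10 repeat near TEX36.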

How the data were processed

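The authors deposited raw read counts, whole numbers without scaling, over TSS windows and over peak regions, and every column was assigned to a library. The submitters' processing notes name bcl2fastq 2.20.0.422, STAR 2.7.10a and HOMER, and builds hg38 and dm6, without roles. By the methods of the study, ChIP was scaled to fly spike-in chromatin. 0 windows lie on fly contigs, so this scaling was not used, and a shift of the mark across all windows cannot be seen. The members and lists were chosen with earlier results of these data known. The named genes were the members, all named genes within 250 kb, the DEAH-box family and the 5 most alike genes. Windows were kept by filterByExpr (minimum count 10) and fitted in edgeR 4.0.16 (R 4.3.3) by the two-sided quasi-likelihood F-test, with TMM, a prior count of 2, 1 coefficient per group and Benjamini-Hochberg adjustment over all windows. ChIP (7 libraries) and input (8) were fitted apart. SEs come from the F statistic. The chi-square per degree of freedom between replicates was 1.01 to 1.05 in ChIP and 1.01 to 1.62 in input, where sampling noise alone gives 1. Overlapping windows share reads, so no p-value is read from it. ΔLEO1 ChIP in 10% serum had no pair to compare. Scripts were tested on simulated data for serum in wild type. A log2 change of 1 was recovered at 14 of 200 changed windows in ChIP and 40 of 200 in input. At a log2 change of 2 it was 128 and 180 of 200. A window that was not called is thus not shown to be unchanged. Alternatives were library totals without TMM, peak-region totals, no filter, DESeq2 1.42.0, the replicate block, the 4 libraries compared, all 8 ChIP libraries, ChIP over input in 1 fit, distinct windows, other pseudocounts and leaving out each library.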

Additional observations from a re-analysis of the deposited data

Results flagged for a closer look

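At the middle DHX32 start, ENST00000284690, the difference between genotypes in ChIP pointed in opposite directions in the 2 serum conditions. ΔLEO1 against wild type gave a log2 fold change of -0.33 ± 0.50 in 10% serum, where the single ΔLEO1 library stood at 3.74 CPM. In 0.1% serum it gave 0.63 ± 0.32, where both ΔLEO1 libraries were above both wild-type libraries, as at 19.7% of all windows. The values differ by -0.97. This difference was not tested and rests on 1 ΔLEO1 library of 8 reads in 10% serum. A change of sign is not particular to this start. In 10% and 0.1% serum, ENST00000368721 gave 0.67 ± 0.49 and -0.17 ± 0.32, and ENST00000456942 gave -0.61 ± 0.44 and 0.24 ± 0.30. At the representative windows of the remaining start sites both values were below 0. ENST00000368689, merged into the site of ENST00000445510, gave -0.58 ± 0.50 and 0.24 ± 0.30.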

How the results depend on the processing

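At the shared start, the log2 fold change for serum in wild type stayed below 0 under every alternative run, from -1.25 to -0.80 at FANK1 and from -1.27 to -0.80 at DHX32. The pair was picked with these ChIP results known, so this is no sign of stability. Neither shared window was called under DESeq2, ChIP over input, all 8 ChIP libraries, or without replicate A of wild type in 0.1% serum, and 1 of them was not called without replicate A of wild type in 10% serum. With peak-region totals the ChIP values at FANK1 and DHX32 were 0.038 and 0.017 for genotype in 0.1% serum, -0.29 and -0.33 for genotype in 10% serum, -0.63 and -0.62 for serum in ΔLEO1, and -0.96 (FANK1) for serum in wild type. With ChIP over input in 1 fit they were -0.34 (FANK1), -0.24 and -0.26, -0.90 (FANK1), and -0.80 and -0.80 in that order. For serum in ΔLEO1, totals without TMM gave -0.84 (FANK1), DESeq2 -0.92 and -0.91, and the replicate block -0.93 and -0.92. Leaving out 1 ChIP library gave, at FANK1 and DHX32, -0.33 to -0.19 and -0.35 to -0.21 for genotype in 0.1% serum, -0.61 to -0.37 and -0.66 to -0.38 in 10% serum, -0.90 to -0.87 and -0.90 to -0.83 for serum in ΔLEO1, and -1.25 to -1.003 and -1.27 to -0.98 for serum in wild type. The log2 ChIP over input with 2 CPM added was 1.09 (FANK1) and 1.08 (DHX32) in ΔLEO1 in 10% serum and 0.64 at both in wild type in 0.1% serum.

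In input, the uncalled values near 0 changed sign. With peak-region totals, serum in ΔLEO1 gave 0.065 at FANK1 and 0.0097 at DHX32. Leaving out 1 input library gave -0.089 to 0.16 and -0.089 to 0.038 for genotype in 0.1% serum, and -0.19 to 0.063 and -0.18 to -0.045 for serum in ΔLEO1, at FANK1 and DHX32.

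Counts of windows called over the genome also changed with the processing. For genotype in 0.1% serum, ChIP called 554 windows, 2297 with peak-region totals (2152 of them higher, against 130 of 554), 293 in the 4 libraries compared, 27 over input, 0 with all 8 libraries (6103 at an unadjusted p under 0.05) and 0 with DESeq2 (2031). Leaving out 1 library gave 47 to 568, the lowest without replicate A of wild type in 0.1% serum. For serum in wild type, ChIP called 431 windows, 470 with peak-region totals (299 higher, against 116 of 431), 5 with all 8 libraries, 0 over input (19825) and 0 with DESeq2 (1602), and 7 to 461 with 1 library left out, again lowest without that library. Input called 56 windows for serum in wild type, 105 without a filter, 167 with the replicate block, 0 with DESeq2 (3563) and 0 to 1445 with 1 library left out, the highest without either replicate of ΔLEO1 in 10% serum. For genotype in 10% serum, input called 5 windows, 0 with peak-region totals (18249), 0 with DESeq2 (2279) and 0 to 1368 with 1 library left out, the highest without replicate B of ΔLEO1 in 10% serum. For serum in ΔLEO1 it called 0 windows, 6 without a filter, 5 with the replicate block and 0 to 80 with 1 library left out, and for genotype in 0.1% serum 0 windows and 0 to 62. The cause was not tested.

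Whether the replicate letters pair libraries across groups is not known. The correlation of A minus B differences between groups was -0.00060 to 0.015 in ChIP and 0.016 to 0.097 in input. Counting error in single windows lowers such values, so they cannot exclude pairing. The replicate block called 573 ChIP windows for genotype in 0.1% serum and 440 for serum in wild type, and no member changed its call under it. At 26 to 79 reads in the shared window, counting error limits every ChIP value here.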

Other observations

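The 4 peak regions nearest to the pair were annotated to TEX36-AS1, TEX36 (2 regions) and ADAM12. Scaled to reads in peak regions, the TEX36 region on the L1PA10 repeat had 80.7 CPM in wild type in 10% serum, 85.3 in wild type in 0.1% serum, 57.8 in the single ΔLEO1 library in 10% serum and 69.6 in ΔLEO1 in 0.1% serum. The ADAM12 region, on a simple repeat, had 74.5, 54.2, 111 and 63.6 CPM in the same order.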
